A study of Mus musculus with 6 samples.

Results

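The genes described here are 9 regulators of cortical layer fate: Tbr1, Bcl11b, Fezf2, Sox5, Foxp2, Tle4, Ldb2, Lmo3 and Foxp1. The list of genes was drawn up with earlier results of these data known. Their probes were taken without use of the measured values, as every non-control probe whose accession belongs to one of these symbols. This gave 15 of the 55681 probes of the array. Of these 15 probes, 14 cleared background on all 3 arrays of one or both groups and were tested, among 34673 probes tested in all, and each of the 9 genes had a tested probe. The phenobarbital group holds 3 arrays of neural progenitor cell cultures from C57BL/6N embryos whose dams received phenobarbital, a barbiturate that enhances currents through GABA-A receptors, at 80 mg/kg from an 8 mg/mL stock. The control group holds 3 arrays from embryos whose dams received saline on the same schedule. Per the labels' protocols, paired injections 6 h apart were given on embryonic days 10 to 11, and cortex was taken at embryonic day 12 (the sample labels read E12.5). No genetic change or sorting step is given for either group. Cortical tissue was dissociated and plated, and RNA was isolated 4 h after plating. The RNA is thus that of the cells present at that time, and their types are not given. Whether replicates are separate litters or cultures is not given, and the p-values therefore reflect spread among these 6 samples that may be technical.

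Excitatory neurons of the neocortex are born in sequence from progenitors beside the ventricle, the neurons of the deep layers before those of the upper layers. Their identity is set by a small circuit of nuclear proteins that repress one another: in mouse, Tbr1 promotes corticothalamic fate and holds down Fezf2 and Bcl11b, Fezf2 promotes subcerebral fate in part through Bcl11b, and Sox5 delays the subcerebral program in early-born neurons. Not all 9 bind DNA themselves. Tle4 is a corepressor of the Groucho family, Ldb2 joins LIM-domain proteins into complexes, and Lmo3 is a LIM-only protein that acts through its partners. Foxp1 and Foxp2 are forkhead repressors, present in cortex and also in the striatum.

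Sequence upstream of the RefSeq start is shown for Tbr1, which had the largest fall of the members that passed the test, and for Lmo3, the one member that rose. Each line gives the 250 bases before the start, 5′ to 3′ on the gene's strand, from RefSeq (GRCm38.p6). The Tbr1 window is chr2:61804203-61804452 on the plus strand and the Lmo3 window is chr6:138581969-138582218 on the minus strand. Capitals mark matches, on either strand, to the 6 motifs searched: a T-box motif (GGTGTGA), a forkhead motif (TGTTTAC), a Sox motif (AACAAT), a proneural E-box (CAGATG), a GC box (GGGCGG) and a TATA box (TATAAA).
Tbr1: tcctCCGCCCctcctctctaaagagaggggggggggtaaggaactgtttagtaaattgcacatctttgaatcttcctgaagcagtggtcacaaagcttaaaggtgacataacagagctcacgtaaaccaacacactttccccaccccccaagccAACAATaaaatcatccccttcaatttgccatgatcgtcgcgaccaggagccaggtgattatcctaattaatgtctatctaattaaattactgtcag
Lmo3: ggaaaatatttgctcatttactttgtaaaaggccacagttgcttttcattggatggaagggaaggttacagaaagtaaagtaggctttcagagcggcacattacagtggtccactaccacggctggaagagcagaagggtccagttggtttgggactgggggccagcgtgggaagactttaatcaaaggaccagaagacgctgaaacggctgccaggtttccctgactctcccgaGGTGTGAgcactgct
In the Tbr1 window the Sox letters began 96 bases before the start, and a reversed GC box began 246 bases before it. In the Lmo3 window the T-box letters began 15 bases before the start, and no other motif matched. Over all 32851 windows of this length, 3.33% held the T-box letters, 9.42% the Sox letters and 32.7% the GC box. The promoter table held 7 of the 9 members, with 10 windows in all, and the only T-box match among them was that of Lmo3. No forkhead, E-box or TATA box letters were found in these 10 windows, against 3.17%, 14.4% and 12.4% of all windows. A match of letters is a description and not a binding site.

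Phenobarbital exposure was accompanied by a rise of Lmo3 and by falls of Tbr1, Ldb2 and Foxp1, while no probe of Bcl11b, Fezf2, Sox5, Foxp2 or Tle4 passed the test. Lmo3 was 2.48-fold higher (95% interval 1.89 to 3.24). Tbr1, Ldb2 and Foxp1 were at 0.634, 0.674 and 0.720 of their control level on the probe that passed. The test was limma's moderated test of phenobarbital minus control over all 34673 probes, two-sided, and a probe passed where its p adjusted by Benjamini-Hochberg was below 0.05. By this rule 4 of the 14 member probes passed, 1 up and 3 down, against 16.2% of all probes (6.97% up and 9.24% down). The groups did not overlap for 6 of the 14 member probes, against 44% of all probes, so separation of the groups alone was not particular to these genes.

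The level of a probe is given as the log2 of its processed signal minus the array's 75th percentile, so 0 is the signal of the 75th percentile spot. That percentile was 1803 to 1862 on the phenobarbital arrays, against 1116 to 1291 on the control arrays. All 3 phenobarbital arrays and control replicate 1 shared slide 1, while control replicates 2 and 3 each had a slide of their own. Slide and group are thus largely confounded, and the difference from control replicate 1 alone, within slide 1, is given beside each call. The median log2 fold change of all probes tested was -0.15. It was -0.06 after quantile normalization, and -0.05 when the percentile was set by the probes detected on all 6 arrays, so part of any small fall depends on the scaling. Where a change is given relative to all probes, that median of -0.15 has been subtracted. Radial glia markers (18 of 18) and pan-neuronal markers (17 of 17) cleared the same background filter, as did 15181 of the 20145 gene symbols on the array. The cultures labelled as progenitors thus held RNA of neuronal marker genes too, and the share of each cell type was not measured. In samples that may be mixed, fewer cells of a type and less RNA per cell cannot be told apart.

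Tbr1, the T-box factor of early-born corticothalamic and subplate neurons, was read by a bright and a dim probe. The bright probe stood at 5.86, 5.84 and 5.49 in phenobarbital replicates 1 to 3, against 6.29, 6.44 and 6.43 in control replicates 1 to 3. Every phenobarbital array lay below every control array, with a gap of 0.43 between the groups. The log2 fold change was -0.66 ± 0.14 (SE, n = 3 per group; limma, adjusted p = 0.0288), or -0.51 relative to all probes. Against control replicate 1 alone, on the same slide, the difference was -0.56. The dim probe stood at -1.17, -1.48 and -1.32 in phenobarbital replicates, against -0.96, -1.15 and -0.83 in control replicates. The groups were barely apart, by 0.02, and the log2 fold change of -0.34 ± 0.14 did not pass (limma, adjusted p = 0.130). Both probes pointed down, and the difference between them within an array overlapped between the groups. The fall of the bright probe was -0.37 after quantile normalization and did not pass there (adjusted p = 0.0734).

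**Figure D1:**
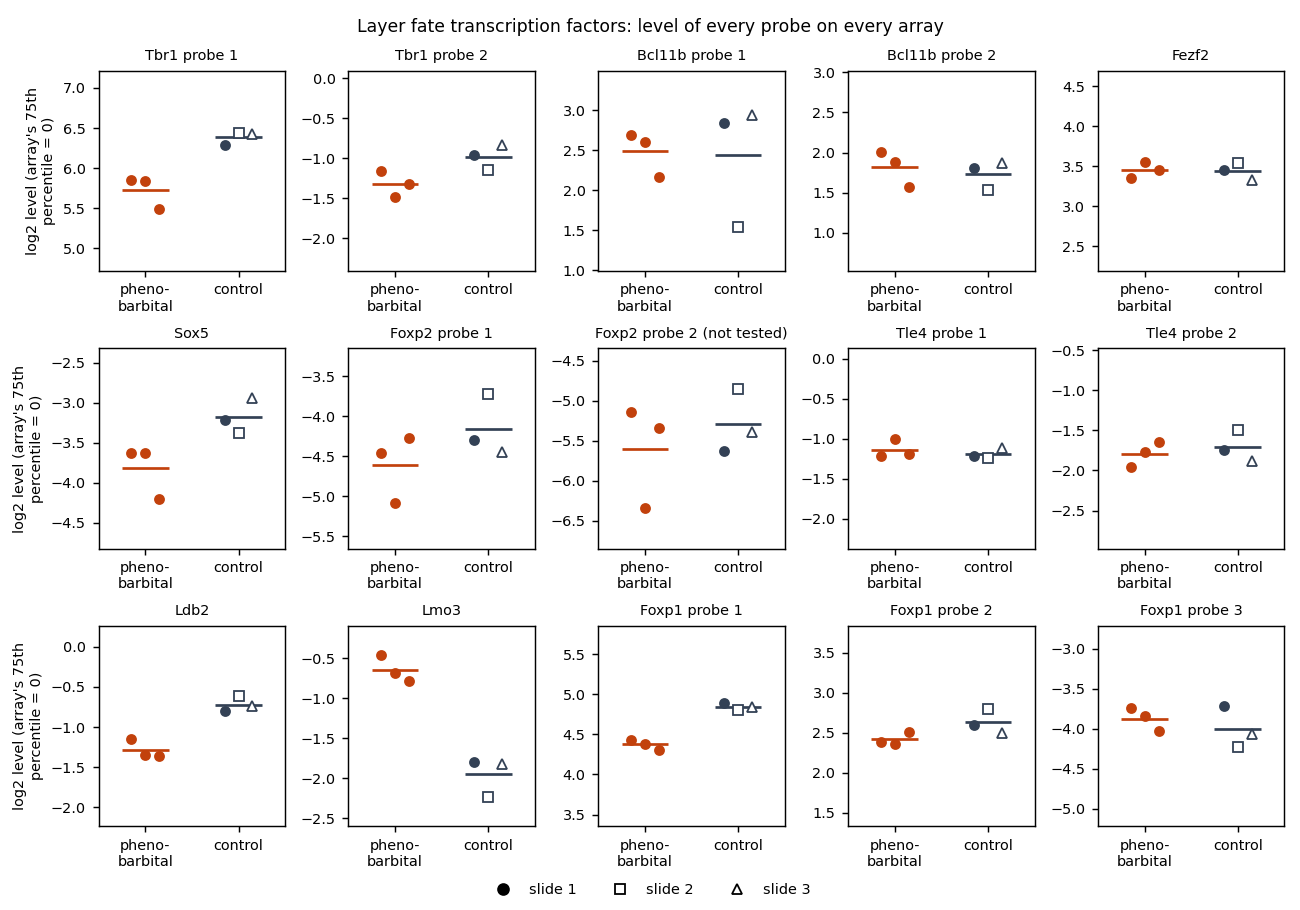
Level of each of the 15 probes on each array, as log2 of the processed signal relative to the array's 75th percentile, with phenobarbital left and control right. Lines are group means, symbols give the slide, every panel spans the same log2 range, and probes of a gene are numbered from the brightest. The groups stand apart for the bright Tbr1 and Foxp1 probes, Ldb2, Sox5 and, in the other direction, Lmo3.

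Bcl11b, also called Ctip2, is the zinc finger factor of corticospinal neurons and is shared with striatal neurons. Its brighter probe stood at 2.69, 2.59 and 2.16 in phenobarbital replicates, against 2.83, 1.54 and 2.94 in control replicates. Control replicate 2 lay well below the other control arrays, and the groups overlapped. The log2 fold change was 0.04 ± 0.39 (limma, adjusted p = 0.950), with a 95% interval from -0.89 to 0.97 that leaves a change of either sign undetermined. Without control replicate 2 it was -0.40 (adjusted p = 0.157). The other probe stood at 2.01, 1.88 and 1.57 in phenobarbital replicates, against 1.81, 1.53 and 1.87 in control replicates, also with overlap. Its log2 fold change of 0.08 ± 0.16 had a narrower 95% interval of -0.30 to 0.47 (limma, adjusted p = 0.739).

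Fezf2, the zinc finger factor that specifies subcerebral projection neurons and is already present in early cortical progenitors, had 1 probe. It stood at 3.36, 3.55 and 3.45 in phenobarbital replicates, against 3.45, 3.54 and 3.33 in control replicates. The groups overlapped almost fully, and the log2 fold change was 0.01 ± 0.11 (limma, adjusted p = 0.954). The 95% interval of -0.26 to 0.28 bounds the change to between 0.835-fold and 1.22-fold on this scale.

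Sox5, a SoxD factor that controls the timing of deep-layer neuron production, was dim but above background on all 6 arrays. It stood at -3.63, -3.63 and -4.20 in phenobarbital replicates, against -3.22, -3.38 and -2.95 in control replicates. Every phenobarbital array lay below every control array, by a gap of 0.24. The log2 fold change of -0.64 ± 0.20 was nearly that of the bright Tbr1 probe, but with its wider spread it did not pass (limma, adjusted p = 0.0768; unadjusted p = 0.0179). Of 22 alternative settings it passed in 2. These were normexp background correction, with -0.55 (adjusted p = 0.0255), and array weights, with -0.51 (adjusted p = 0.0211).

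Foxp2, a forkhead repressor of corticothalamic neurons, was near the limit of detection. Its tested probe stood at -4.46, -5.09 and -4.28 in phenobarbital replicates, against -4.30, -3.72 and -4.45 in control replicates. The groups overlapped, and the log2 fold change was -0.45 ± 0.28 (limma, adjusted p = 0.290). Of 22 alternative settings it passed in 1, normexp background correction, with -0.51 (adjusted p = 0.0434). The other probe was above background on 2 of 3 phenobarbital arrays and on 2 of 3 control arrays, so it was not tested. That probe stood at -5.14, -6.34 and -5.34 in phenobarbital replicates, against -5.63, -4.85 and -5.39 in control replicates, with overlap.

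Foxp1, the related forkhead repressor of later-born deep-layer and middle-layer neurons, was read by 3 probes that differed. The brightest stood at 4.43, 4.39 and 4.31 in phenobarbital replicates, against 4.89, 4.81 and 4.84 in control replicates. These groups were tight and stood 0.38 apart. The log2 fold change was -0.47 ± 0.10 (limma, adjusted p = 0.0284), -0.33 relative to all probes and -0.52 against control replicate 1 alone. The second probe, assigned to the same transcript, stood at 2.38, 2.36 and 2.51 in phenobarbital replicates, against 2.59, 2.80 and 2.49 in control replicates. Phenobarbital replicate 3 reached into the control range, and the log2 fold change was -0.21 ± 0.12 (limma, adjusted p = 0.264). The dimmest probe, assigned to a different RefSeq transcript of the gene, stood at -3.74, -3.84 and -4.03 in phenobarbital replicates, against -3.71, -4.23 and -4.07 in control replicates. Here the groups overlapped, and the log2 fold change was 0.13 ± 0.17 (limma, adjusted p = 0.607). The brightest probe minus the dimmest, taken within each array, was 8.16, 8.23 and 8.34 with phenobarbital, against 8.60, 9.03 and 8.91 in control. These values did not overlap between the groups, while those of every other pair of tested probes of a member did. Of all single probes tested, 44% did not overlap either. The mean of the 3 probes had a log2 fold change of -0.18 and did not pass (limma, adjusted p = 0.227), so the fall of Foxp1 is a result of its brightest probe. After quantile normalization that probe had -0.28 and did not pass (adjusted p = 0.0948).

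**Figure D2:**
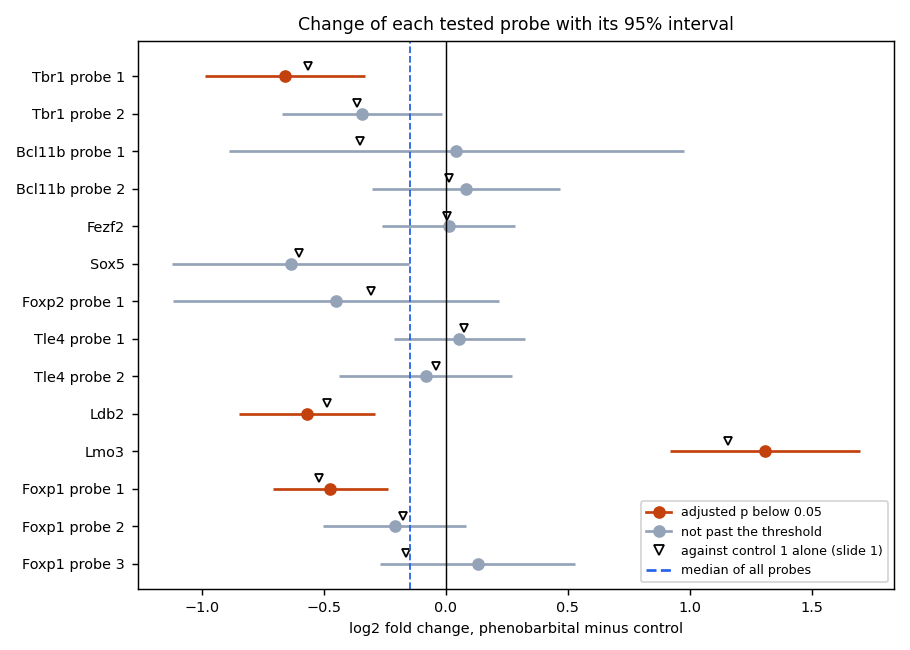
Log2 fold change of each tested probe, phenobarbital minus control, with its 95% interval. Triangles give the difference from control replicate 1 alone, which shared slide 1 with the phenobarbital arrays, and the dashed line is the median of all probes at -0.15. Lmo3 lies alone on the right at 1.31. The bright probes of Tbr1 and Foxp1, with Ldb2, lie left of the median with intervals that exclude it. The interval of Sox5, which did not pass, narrowly excludes it too.

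Tle4, the Groucho corepressor found in corticothalamic neurons, did not pass on either probe. The brighter one stood at -1.22, -0.997 and -1.19 in phenobarbital replicates, against -1.21, -1.25 and -1.11 in control replicates. Its log2 fold change was 0.06 ± 0.11 (limma, adjusted p = 0.753), with a 95% interval of -0.21 to 0.32. The dimmer one stood at -1.96, -1.77 and -1.64 in phenobarbital replicates, against -1.75, -1.49 and -1.88 in control replicates, and had -0.08 ± 0.15 (adjusted p = 0.722). Both overlapped between the groups.

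The pair of LIM-associated members moved in opposite directions. Ldb2, which bridges LIM proteins and marks subcerebral neurons of the deep layers, stood at -1.15, -1.36 and -1.36 in phenobarbital replicates, against -0.80, -0.62 and -0.74 in control replicates. The groups were 0.35 apart, and the log2 fold change was -0.57 ± 0.12 (SE, n = 3 per group; limma, adjusted p = 0.0270), or -0.42 relative to all probes. Within slide 1 it was -0.49. After quantile normalization it was -0.57 and passed (adjusted p = 0.0254). With the percentile over probes above background on all arrays it was -0.47 and did not pass (adjusted p = 0.0550), while the bright probes of Tbr1 and Foxp1 passed there (adjusted p = 0.0410 and 0.0470). Lmo3, the LIM-only member, stood at -0.46, -0.68 and -0.78 in phenobarbital replicates, against -1.80, -2.23 and -1.82 in control replicates. The lowest phenobarbital array was 1.02 above the highest control array, the widest gap of any member probe. Its log2 fold change was 1.31 ± 0.16 (limma, adjusted p = 0.00705), or 1.46 relative to all probes. Within slide 1 it was 1.16, with an adjusted p of 0.0503 when slide was a fixed block. Each of Ldb2 and Lmo3 had 1 probe, so no second probe bears on either value.

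The 3 falls also rested on the scaling. Before it, the processed signal of the bright Tbr1 probe was 107420, 106655 and 81029 in phenobarbital replicates, against 101164, 97095 and 103448 in control replicates, so the groups overlapped. The unscaled signals of Ldb2 and of the brightest Foxp1 probe overlapped as well, while those of Lmo3, at 1051 to 1343 with phenobarbital and 237 to 371 in control, did not. The unscaled signals carry the differing brightness of whole arrays given above.

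The calls of the 3 falls, more than their sizes, depended on the arrays used. Leaving out any array other than control replicate 2 left Lmo3 as the only member probe that passed, with adjusted p-values for the bright Tbr1 probe of 0.0555 to 0.0786, while over all 6 omissions the log2 fold change stayed between -0.72 and -0.54 for Tbr1, -0.64 and -0.52 for Ldb2, and -0.50 and -0.44 for Foxp1. Without control replicate 2 all 3 falls passed. With slide as a fixed block no member probe passed in limma (4 had an unadjusted p below 0.05), against 1094 of all probes, and the calls given below for Ccn2, Rorb, Mef2c, Plxnd1, Sox11, Ctnnb1, Emx2 and Reln were lost too, on their brightest probes, with log2 fold changes of the same sign, such as -0.91 for Ccn2, -0.89 for Rorb and 1.54 for Reln. Control replicates 2 and 3, each alone on a slide, do not enter the comparison of groups in the fixed block. That fit thus repeats the difference from control replicate 1 alone and is no separate check. With slide as a random block the 4 member probes that passed without a block passed again.

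**Figure D3:**
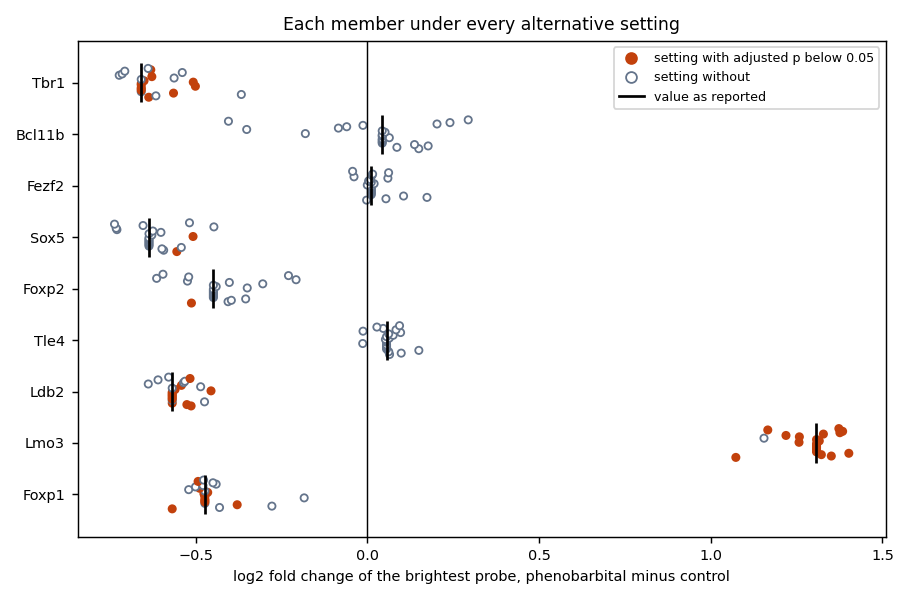
Log2 fold change of the brightest probe of each member under the 22 alternative settings, with filled points where the adjusted p was below 0.05 and a bar at the value as reported. Lmo3 stayed between 1.07 and 1.40 and passed in 21 settings, and Tbr1, Ldb2 and Foxp1 stayed below 0 and passed in 12, 13 and 11.

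The other genes of the layer program were read from 5 lists, by the brightest tested probe of each gene, and some genes stand in more than 1 list. For comparison, 16.1% of all names passed on that probe (6% up and 10.1% down), with a median log2 fold change of -0.17. The median over the brightest probes of the 9 members was -0.45, but over all 14 tested member probes it was -0.146, against -0.148 for all probes, and on the mean over the probes of each gene it was -0.18, against -0.14 for all names. A shift of the members as a group was thus seen on the brightest probes alone. Among 20 other deep-layer and subplate genes, 1 fell and 19 did not pass, with a median of -0.18 and no rise. The one that fell was the matricellular gene Ccn2, a subplate marker later in development, with -0.94 ± 0.22 (limma, adjusted p = 0.0369). After quantile normalization it had -0.80 and did not pass (adjusted p = 0.0974). A dimmer probe of Etv1, an ETS factor of deep-layer neurons, fell by 0.72. The brightest Etv1 probe had -0.42 and did not pass (limma, adjusted p = 0.0838). Bcl11a, the relative of Bcl11b, had -0.40 (adjusted p = 0.189), and the subplate factor Nr4a2 had -0.28 (0.151). Control replicate 2 stood apart from the other control arrays for some genes of these 5 lists, as for Bcl11b. Pcp4 stood at 2.51, 0.03 and 2.78 in control replicates 1 to 3, and Nxph4 at 0.81, 1.59 and 0.77. For such genes a failure to pass leaves a change of either sign undetermined. Over the tested probes control replicate 2 correlated with control replicates 1 and 3 at 0.987 and 0.982, against 0.995 between those. The upper-layer list had a median of -0.23 over 14 genes, of which 1 rose and 2 fell. Rorb, an orphan nuclear receptor of the middle layers, fell by 0.76 ± 0.14, and the MADS-box factor Mef2c rose by 0.70 ± 0.16 (limma, adjusted p = 0.0231 and 0.0361). The Mef2c probe was dim, and with normexp it had 0.09 and did not pass (adjusted p = 0.566). The semaphorin receptor gene Plxnd1 fell by 0.57 ± 0.12 on its brightest probe (adjusted p = 0.0303), while its other probe rose by 0.98. The brightest probe did not pass after quantile normalization (adjusted p = 0.0821).

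Of 14 relatives of the members in the same protein families, none passed on the brightest probe (limma, adjusted p; at an unadjusted p below 0.05, 2 were higher and 2 lower), and their median of -0.04 lay 0.13 above that of all names. The brightest of them, Lmo4 and Tle5, had -0.47 (adjusted p = 0.0615) and -0.16 (0.624). A dimmer probe of Foxp4 rose by 0.92 and a dimmer probe of Eomes, the T-box relative of Tbr1 in intermediate progenitors, fell by 0.59. Among 15 tested cofactors and regulators of layer fate, 1 rose, 2 fell and 12 did not pass. Sox11, a SoxC factor of new neurons, fell by 0.47 ± 0.10 and the Wnt effector gene Ctnnb1 by 0.45 ± 0.10, while the progenitor factor Emx2 rose by 0.77 ± 0.20 (limma, adjusted p = 0.0266, 0.0371 and 0.0485). The other probe of Sox11 had -0.34 and did not pass. After quantile normalization Sox11 had -0.23, Ctnnb1 -0.23 and Emx2 0.81, and none of these passed (adjusted p = 0.128, 0.159 and 0.0653). Of 7 tested genes known in mouse to depend on Tbr1, only Reln, the secreted guide of neuronal layering, passed. Its dim probe had 1.27 ± 0.27 (adjusted p = 0.0293), but it was above background on 3 of 3 phenobarbital and 2 of 3 control arrays and so entered the test only through the group where it was higher. With normexp it had 0.27 and did not pass (adjusted p = 0.128). Reln is also made by Cajal-Retzius cells. Auts2 matched no probe by accession and was not analysed here.

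**Figure D4:**
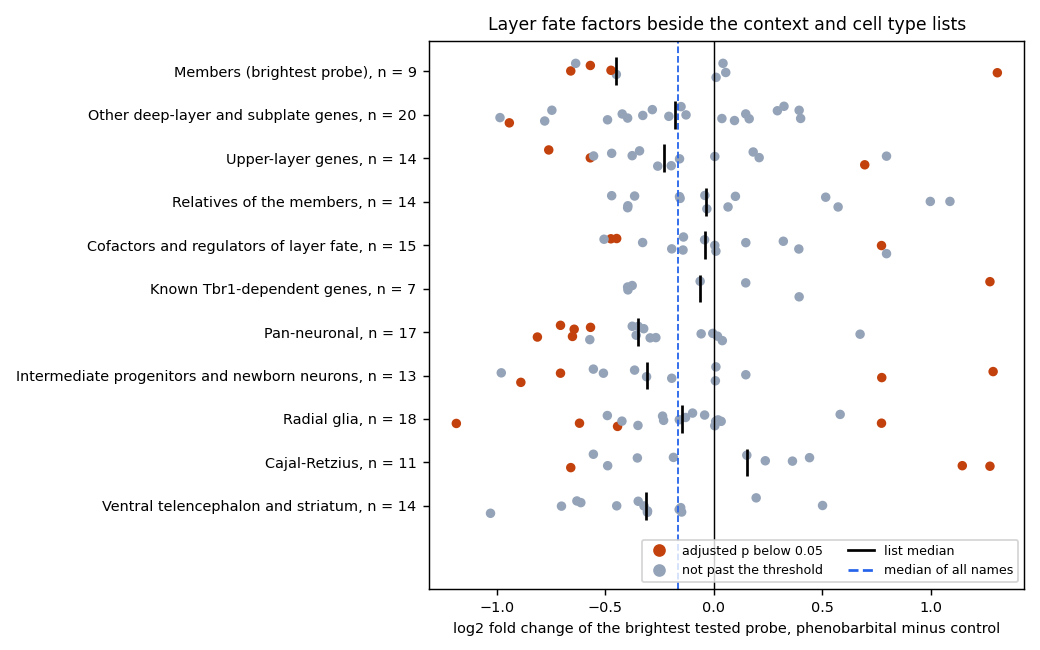
Log2 fold change of the brightest tested probe, phenobarbital minus control, for the 9 members, the 5 context lists and 5 cell type lists. Points are genes, bars are list medians and the dashed line is the median of all names at -0.17. Lmo3 is the farthest right of the members, at 1.31, and the members' median of -0.45 is that of their brightest probes.

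Some markers of cell types in the cortex passed the test as well, though most in each of the 5 lists below did not. The pan-neuronal list had 5 falls and no rise among 17 genes, with a median of -0.35. Their summed level, in units of the array's 75th percentile, was 276.7 to 299.8 on the phenobarbital arrays, against 366.5 to 403.6 on the control arrays. Among them the RNA-binding protein gene Elavl4 fell by 0.71 ± 0.10 on its brightest probe (limma, adjusted p = 0.0114). The microtubule gene Stmn2 fell by 0.64 ± 0.12 (limma, adjusted p = 0.0226). Both values were near that of the bright Tbr1 probe, but the other Elavl4 probe, at -0.34, missed the threshold. Values on the brightest probes ran from -0.81 for Snap25 to 0.68 for Nefm, with 14 negative and 3 positive. Map2 and Syt1 were nearly flat, at -0.004 and 0.04. A dimmer probe of Ncam1 rose by 1.13. Of 13 genes of intermediate progenitors and newborn neurons, 2 rose, 2 fell and 9 did not pass, and the summed level was 108.7 to 110.4 with phenobarbital, against 144.8 to 151.9 in control. The radial glia list had 1 rise and 3 falls among 18 genes, with a median of -0.14, against -0.17 for all names. Its sums were 403.4 to 457.7 with phenobarbital, against 497.5 to 518.8 in control. Its probes differed: Notch1 fell by 1.19 on the brighter probe and rose by 1.56 on the other, and dimmer probes of Prom1 and Ednrb rose by 1.22 and 1.51. The Cajal-Retzius list of 11 genes includes Tbr1 itself. Reln and Calb2 rose (Reln with the limits given above), Tbr1 fell and 8 did not pass. Their median was 0.15, with 6 positive and 5 negative values. The Calb2 probe was dim too, at -4.44, -3.85 and -3.86 in phenobarbital replicates, against -4.68, -5.65 and -5.26 in control replicates. The sum was 63.5 to 76.5 with phenobarbital, against 95.1 to 113.1 in control. It was led by Tbr1 and so largely repeats the fall of that gene. None of 14 tested genes of the ventral telencephalon and striatum, where Bcl11b, Foxp1 and Foxp2 are also present, passed (limma, adjusted p; 2 were lower at an unadjusted p below 0.05). Their median was -0.31, and their sum was 31.3 to 32.2 with phenobarbital, against 38.5 to 45.5 in control. The sums are led by their brightest genes and are given on the 75th percentile scale alone. A bright probe can depend on that scale: the bright Tbr1 probe had -0.66 on it and -0.37 after quantile normalization. Whether the lower sums hold under another scaling was not tested. The part of these cell types in the falls of Tbr1, Ldb2 and Foxp1 was not tested.

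Genes of the choroid plexus, blood, vessels, meninges and macrophages were read in the same way. Of 7 tested choroid plexus genes 6 rose and 1 did not pass, with sums of 12.1 to 23.4 with phenobarbital, against 1.91 to 4.20 in control, and 1 of the 6, Kcne2, was tested only through the phenobarbital arrays. Of 11 erythroid genes 6 fell and 5 did not pass, with a median of -1.41. Of 12 mural and meningeal genes 6 fell and 6 did not pass, with a median of -0.57. Of 11 endothelial genes 4 fell and 7 did not pass, with a median of -0.51. Of 11 microglial and macrophage genes 4 fell, 1 rose and 6 did not pass, with a median of -0.20. The part of these tissues and cells in the rise of Lmo3, or in the falls of Tbr1, Ldb2 and Foxp1, was not tested.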

How the data were processed

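Per the file headers, the authors' 1-colour scans were quantified by Agilent Feature Extraction, version 10.7.3.1, on an array annotated with build mm9. The submitters' processing notes give version 10.7. The deposited values used are intensity (linear processed signal, corrected for background and spatial trend by that software but not scaled across arrays). The authors' deposited value table holds log2 values. Set against the log2 processed signals, array-to-array differences were the same, 1 factor per array apart, within 1.6e-06 for 99% of 55249 probes. Scale and direction were so settled, while each probe's centring stays unknown. Column medians were -0.02, -0.09 and -0.08 for phenobarbital replicates 1 to 3 and 0.08, 0.10 and 0.09 for control replicates 1 to 3.

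Log2 processed signals were scaled to each array's 75th percentile over 59305 non-control spots. Software-flagged outlier spots (98 to 198 per array) were dropped and replicate spots averaged. Between 62.8% and 68.7% of spots were well above background, and no such spot was saturated. Accessions were matched to RefSeq (GRCm38.p6) for names only, which named 26582 of 55681 probes. Tested probes were those well above background on all arrays of one or both groups, with 2 or more values per group. The fit was limma 3.58.1 (R 4.3.3) without covariates, checked on simulated data. Array number limits the precision.

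Members, lists and settings were chosen with earlier results of these data known. Every member probe is named, and from each context list the 4 passing genes of smallest p at most, or its 2 brightest if none passed. From cell type lists up to 2 were to be named, and some are left out. Bcl11a, Nr4a2, Pcp4, Nxph4, Foxp4, Eomes, Etv1, Ncam1, Prom1, Ednrb, Calb2 and Kcne2 were added after their values were seen. Alternatives varied background correction, scaling, filter, outlier spots, probe choice, variance prior, array weights, value source, a replicate or slide block, and left out each array. Normexp used median spot signals, since no means are given.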

Additional observations from a re-analysis of the deposited data

How the results depend on the processing

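The number of all probes that passed was 5618 (43% of them rises). It moved to 9201 with normexp (25.6% of them rises), 3640 with each array scaled to its median (62.7% of them rises), 1929 with no filter on dim probes, 13900 with array weights and 1094 with slide as a fixed block. Without 1 array it ran from 1358 to 5975. Rises made up 59.1% of the calls after quantile normalization and 66.6% with the percentile over probes above background on all arrays. The count of member probes that passed, 4, was 2 after scaling to the median and after quantile normalization, 1 with no filter on dim probes, 0 with slide as a fixed block, and 1 to 4 without 1 array. The replicate numbers did not pair the samples: deviations from the group means of same-numbered arrays correlated at 0.0633, -0.157 and -0.325 over the tested probes. With the replicate block 577 probes and 1 member probe, Lmo3, passed. Of 298 values of member probes under the alternatives, 244 kept their direction and side of the threshold, 31 no longer passed, 4 newly passed and 19 changed sign, all on probes that passed in no setting. The sign changes were these. Bcl11b's brighter probe had -0.18 with array weights, -0.35 with slide fixed, -0.0843 with slide random and -0.40 to 0.29 without 1 array, and its other probe -0.0174 to 0.21 without 1 array. Fezf2 had -0.00219 with normexp, -0.000165 with array weights and -0.0430 to 0.0619 without 1 array. Tle4 had -0.0136 on the mean of its probes and, on the dimmer probe, 0.0111 with the percentile over probes above background on all arrays. Without 1 array its brighter probe ran from -0.0126 to 0.0968 and its dimmer from -0.17 to 0.0244. Foxp1's dimmest probe had -0.0533 with normexp and -0.16 with slide fixed. Of the other named genes, the means over probes turned Plxnd1 to 0.21, Tle5 to 0.29 and Lmo4 to 0.0518, and Tle5 had 0.13 after quantile normalization and -0.35 to 0.00423 without 1 array. Except where a setting tests more probes or fewer samples, the cause was not tested.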
